A study of Mus musculus with 43 samples.

Results

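Passage through a cell sorter was compared with an equal wait on the bench in PD798, a pancreatic ductal adenocarcinoma line. It was derived from a tumor of a KPCY mouse, which carries Pdx1-cre, 1 floxed p53 allele and a Rosa YFP reporter on both alleles. Pdx1-cre acts in the pancreatic epithelium, so the YFP label was switched on there, and PD798 stands for 1 such tumor only. The FACS-only cells went through the BD Influx sorter without the magnetic and acoustic pre-enrichment step, and the Mock cells waited equally long on the bench in staining buffer. These 6 libraries, 3 of each group, are 6 of the 43 of the series. The paper describes the FACS-only cells as the same sample that went into pre-enrichment, which had met magnetic particles and red cell lysis buffer, and describes the Mock cells only as held in staining buffer. The sorter, the particles and the lysis buffer therefore cannot be told apart in this comparison. The labels speak of blood for these libraries and the paper's account of this experiment does not. All cells were cultured in DMEM with serum and dissociated before handling. No source names separate cultures, so p-values measure the spread between these samples, which may be technical. The remaining conditions of the experiment, with 3 libraries each, entered the same model, Pre-FACS cells banked before any sorting and Pre-enriched cells that passed both pre-enrichment and the sorter.

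Cells that are detached, kept in suspension and pushed through a narrow stream meet changes of shear, temperature and pressure. Immediate-early genes such as Fos, Jun and Egr1 encode transcription factors that are switched on within minutes of many stimuli without new protein synthesis, and are a known mark of tissue dissociation and sorting. Slower programs include the heat-shock chaperones, the Atf4-led integrated stress response and the NF-kB response, in which Nfkbia and Tnfaip3 are feedback inhibitors. Members of these programs are therefore the first place to look for a trace of the sorter.

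The 6 libraries carried the profile of a ductal tumor line with few transcripts of other cells. Levels are given in TPM, transcript abundances that are corrected for gene length and scaled to a fixed total per library and that carry no read depth, so the depth of a library is unknown and no counting error can be given. The keratin genes Krt18 and Krt8 were at 8469 to 9641 and 6617 to 8262 TPM, Cdh1, the gene of E-cadherin, was at 980 to 1057 TPM, and Epcam was at 32.1 to 37.5 TPM. Of 22 blood cell genes 5 were measured and 2 passed the filter on low values. Ptprc, the gene of the pan-leukocyte protein CD45, was at 0.689 TPM or less and Alas2, an erythroid enzyme, at 0.680 TPM or less. The most abundant was the platelet gene Ppbp at 1.57 to 3.35 TPM, and the 5 together summed to 2.88, 5.54 and 4.71 TPM in the FACS-only libraries and to 5.68, 3.60 and 4.95 TPM in the Mock libraries. Of 12 fibroblast and endothelial genes 4 were measured, led by Col1a1 at 1.09 to 1.70 TPM. Pdgfra reached at most 0.0799 TPM and Kdr at most 0.943 TPM. Of 11 acinar and islet genes 2 were measured, and their sums of 9.98 to 15.6 TPM in FACS-only and 11.6 to 17.1 TPM in Mock came mostly from the elastase gene Cela1.

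No gene passed the test between FACS-only and Mock cells in the main fit. A fit with a replicate block, for libraries of the same number, gave 4 genes, all higher in FACS-only cells (Jun, Zfp36, Cyr61 and Ankrd1). In the main fit 0 of 12159 genes tested passed an adjusted p of 0.05 (0% of genes, limma with Benjamini-Hochberg adjustment), and the lowest adjusted p was 0.664. At an unadjusted p under 0.05 there were 386 genes higher in FACS-only cells (3.17%) and 298 lower (2.45%). The 2 groups of 3 libraries did not overlap for 621 genes that were higher in FACS-only cells (5.11%) and for 657 that were lower (5.4%). Differences are given as FACS-only minus Mock on the log2(TPM + 1) scale, which understates the change of genes of low expression. Over all genes they had a median of 0.0035 and an SD of 0.178, with the central 90% between -0.23 and 0.30.

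How large a change could have gone unseen was read from the 95% interval of each gene's difference. On the log2(TPM + 1) scale that interval lay within a 2-fold change in both directions for 11768 genes (96.8%). It lay within a 1.5-fold change for 9873 genes (81.2%). Precision rose with expression. Among 4380 genes over 50 TPM the interval lay within 2-fold for 99.7%, among 5745 genes at 5 to 50 TPM for 98.6%, and among 2034 genes under 5 TPM for 85.5%. For genes near 1 TPM or below, an interval within 2-fold on this scale leaves room for a larger change in TPM itself. The share under 5 TPM therefore overstates how small a change could have gone unseen there. At the median the interval reached 0.24 to either side on the log2 scale, a 1.18-fold change. Only 25 genes had a difference beyond 1 in either direction, and 16 of these 25 were small non-coding genes (snoRNAs, miRNAs and the like), of which 79 were tested. The median SE was 0.424 for those 79 genes and 0.114 for the other 12080.

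**Figure D1:**
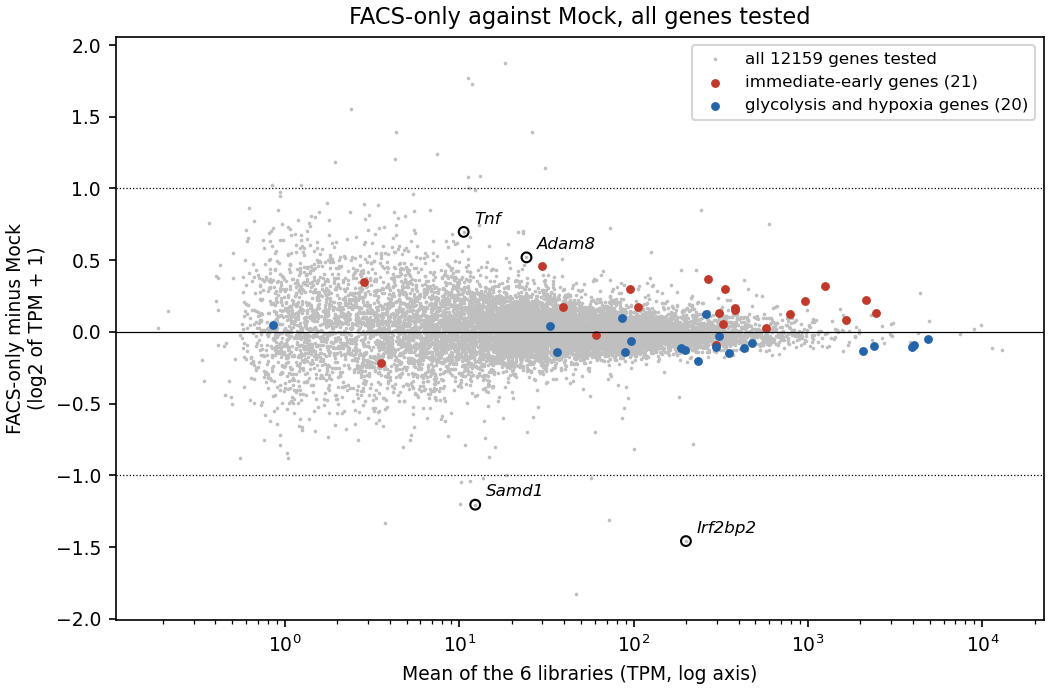
Each of the 12159 genes tested is a point, with its mean over the 6 libraries (TPM, log axis) across and FACS-only minus Mock (log2 of TPM + 1) upward, and dotted lines mark a difference of 1 in either direction. The spread narrows towards abundant genes, the 21 immediate-early genes (red) lie mostly above 0 with a median of 0.16, and the 20 glycolysis and hypoxia genes (blue) lie mostly below it with a median of -0.10.

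Profiles of libraries of the same group were hardly more alike than those of different groups. Pearson's r across genes, which are not independent replicates, had a mean of 0.9903 over the 6 pairs within groups and of 0.9900 over the 9 pairs between groups. All 15 pairs lay between 0.9883 and 0.9911. The excess of 0.00031 had a one-sided p of 0.2 by an exact permutation test, and 0.1 is the smallest p that 3 against 3 libraries allow. The library Mock 2 stood apart on the first principal component of the 6 (24.9% of the variance), at -21.0 where the others ranged from -3.08 to 12.7. Without it the excess was -0.00022 (exact permutation p = 0.8). Without Mock 3 it was 0.00057 (exact permutation p = 0.1, the smallest possible), and without FACS-only 1 it was 0.00055 (exact permutation p = 0.2). With the mean of each library number subtracted the excess was 0.00205. That step makes the FACS-only and Mock library of a number mirror images, which raises the excess by itself, so nothing is read from it.

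Adam8, the gene of a cell surface metalloprotease that sheds membrane proteins, had the lowest p of all genes (chromosome 7, 139978932 to 139992562, mm10). It was at 28.8, 28.5 and 28.9 TPM in the FACS-only libraries and at 16.7, 20.3 and 22.8 TPM in the Mock libraries. All FACS-only values lay above all Mock values, and they differed by only 0.210 TPM (SD, n = 3). The difference was 0.52 ± 0.11 (SE), a 1.43-fold higher level, with an adjusted p of 0.664 by limma. The groups the comparison does not use showed the same split, with 18.7, 20.9 and 19.6 TPM in the Pre-FACS libraries and 29.4, 28.4 and 28.5 TPM in the Pre-enriched libraries. Every sorted library was thus above every unsorted one, a split seen after the gene had been picked for its p.

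Gnl3, which encodes the nucleolar GTPase nucleostemin, gave a like picture at a higher level (chromosome 14, 31012433 to 31019152, mm10). Its FACS-only libraries were at 141, 145 and 141 TPM and its Mock libraries at 121, 110 and 111 TPM. They did not overlap, the difference was 0.32 ± 0.07 (SE, n = 3 and 3), and the adjusted p was 0.664. The Pre-enriched libraries were at 140, 142 and 141 TPM and the Pre-FACS libraries at 102, 121 and 106 TPM. The snoRNA genes Snord19 and Snord69 overlap exons of Gnl3 and the gene Pbrm1 overlaps it on the other strand, and since the kit does not mark strand its reads cannot be told apart from theirs where exons overlap.

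Nfkbiz and Tnf were among the other genes of lowest p on the higher side. Nfkbiz, a nuclear co-factor of NF-kB, was at 143, 159 and 148 TPM in FACS-only and at 113, 78.0 and 119 TPM in Mock cells, a difference of 0.56 ± 0.12 (SE). Tnf, the gene of the cytokine TNF, was at 10.3, 14.4 and 15.5 TPM against 8.59, 6.80 and 8.02 TPM, a difference of 0.70 ± 0.17 (SE). In both genes all FACS-only libraries lay above all Mock libraries, with adjusted p of 0.664 and 0.693 by limma. Neither gene showed this in the Pre-enriched cells, which were at 94.6 TPM ± 7.82 (SD, n = 3) for Nfkbiz and 8.89 TPM ± 1.72 for Tnf, next to Pre-FACS means of 97.3 and 8.70 TPM. The remaining genes of lowest p on this side were Tmem106a (difference 0.57), Zcchc7 (0.44), Yeats4 (0.40), the growth arrest gene Gadd45g (0.34), the splicing factor gene Srsf11 (0.27) and the snoRNA Gm25500 (1.87). Gm25500 lies inside the gene Taf1d and shares exon sequence with it (chromosome 9, 15312552 to 15312674, mm10). Its FACS-only values of 19.9, 36.5 and 31.3 TPM and Mock values of 11.4, 4.43 and 6.68 TPM did not overlap, but the interval of the difference ran from 1.02 to 2.73.

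Apart from Tnf, the 5 largest non-overlapping differences on the higher side at 10 TPM or more were small non-coding genes inside longer ones. Gm25500 led them, followed by Mir568 (1.08) in the gene Zbtb20, Mir6386 (1.00) in Plscr1 and the snoRNA Snora28 (0.85) in Eif5. Snora28 was at 346, 293 and 291 TPM in FACS-only and at 220, 106 and 215 TPM in Mock cells. The libraries were made from polyadenylated RNA and most of these genes share exon sequence with their host, so their values need not stand for the small RNAs themselves.

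On the lower side the genes of lowest p included a set in which the Mock libraries stood apart from all others. Irf2bp2, the gene of a transcriptional co-repressor, was at 287, 283 and 275 TPM in the Mock libraries and at 205, 91.9 and 55.9 TPM in the FACS-only libraries (chromosome 8, 126588296 to 126593986, mm10, with Gm26759 on the other strand). The Mock values were close together and the FACS-only values lay widely spread below them, a difference of -1.46 ± 0.36 (SE) with an adjusted p of 0.693 by limma. The Pre-FACS libraries were at 95.1, 160 and 196 TPM and the Pre-enriched libraries at 55.7, 72.7 and 132 TPM. Samd1, whose protein binds unmethylated CpG islands, was at 10.7, 6.30 and 4.84 TPM in FACS-only and 16, 20.8 and 15.4 TPM in Mock cells, a difference of -1.20 ± 0.25 (SE). Among genes at 10 TPM or more whose groups did not overlap, the 5 of largest fall were Ski (-1.83), Irf2bp2, Ranbp9 (-1.31), Samd1 and Taf4a (-1.20). Ski and Irf2bp2 encode co-repressors, Ranbp9 a scaffold protein and Taf4a a subunit of the general factor TFIID. In all 5 the 3 Mock libraries were above each of the other 9 libraries, which was so for 57 of all 12159 genes (0.469%), and the FACS-only libraries fell in the same order, highest in FACS-only 1 and lowest in FACS-only 3, which was so for 2106 of all genes (17.3%). Ski was at 49.2, 18.6 and 6.80 TPM in these libraries and Ranbp9 at 74.8, 63.5 and 10.5 TPM. These 5 genes were chosen by the size of their fall, so this is a description, and what sets their level in a library was not tested.

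The other genes of lowest p on the lower side were smaller in change or lower in level. The linker histone gene Hist1h1b was at 7.72, 5.09 and 5.98 TPM in FACS-only and 12.8, 11.9 and 8.44 TPM in Mock cells, a difference of -0.73 ± 0.18 (SE). Its level in the Pre-enriched libraries was 5.28 TPM ± 1.01 (SD, n = 3) and in the Pre-FACS libraries 12.8 TPM ± 1.46, so that sorted libraries were again below unsorted ones. Mapk3, the gene of the kinase ERK1, was at 185, 184 and 192 TPM against 216, 217 and 217 TPM, a difference of only -0.21 ± 0.05 (SE) with groups that did not overlap. Gstk1 (-0.48), Armc7 (-0.80), Ccdc64 (-0.74), Acaa1b (-0.57), Serpinb6a (-0.20) and 9530068E07Rik (-0.16) completed the 10. None of these had an adjusted p under 0.693.

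**Figure D2:**
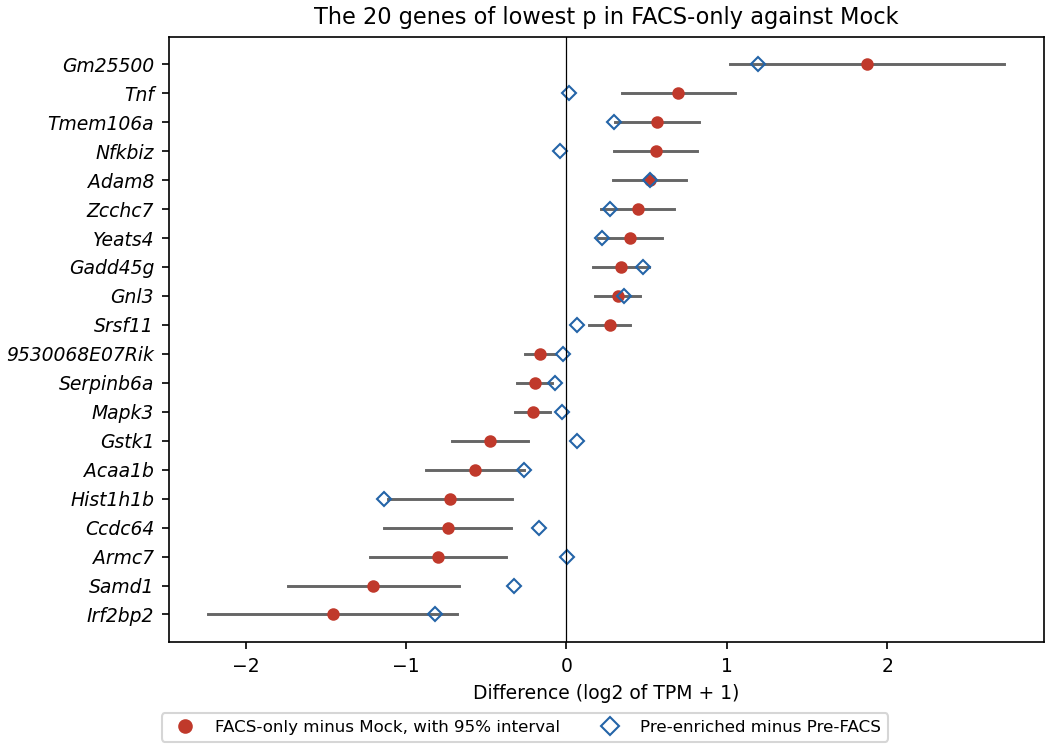
Differences on the log2(TPM + 1) scale of the 10 genes of lowest p higher and the 10 lower in FACS-only than in Mock cells, with FACS-only minus Mock as filled circles with 95% intervals and Pre-enriched minus Pre-FACS as open diamonds. For Adam8 and Gnl3 both lie close together at 0.52 and 0.52 and at 0.32 and 0.36, whereas for Nfkbiz and Tnf the diamond lies near 0.

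Pre-enriched and Pre-FACS cells, a second sorted and unsorted pair that shares no library with the first, were set beside all genes of low p. Of the 386 genes higher in FACS-only than in Mock cells at an unadjusted p under 0.05, 247 (64%) were also higher in Pre-enriched than in Pre-FACS cells, with a median difference of 0.05. Of the 298 lower genes 208 (69.8%) were also lower, with a median of -0.07. Over all genes tested 45.6% were higher and 54.4% lower in this second pair, with a median of -0.01. The medians of the same 386 and 298 genes were 0.35 and -0.25 in the first pair, which chose them. The second pair also differs by the pre-enrichment step and the waiting time, so it does not isolate the sorter either.

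The immediate-early genes lay on the higher side as a group, but none passed the test in the fit without a replicate block. Of 21 members 18 were higher in FACS-only cells (85.7%, against 51.1% of all genes), with a median difference of 0.16 against 0.0035 over all genes, and 4 had an unadjusted p under 0.05 (19%, against 3.17%), all of them higher. Jun, a subunit of the transcription factor AP-1, was at 265, 302 and 337 TPM in the FACS-only libraries and 229, 212 and 256 TPM in the Mock libraries (chromosome 4, 95049034 to 95052222, mm10, with the antisense gene Junos beside it). These groups did not overlap, the only such case among the 21 genes, where 5.11% of all genes did not overlap on the higher side. The difference was 0.37 ± 0.10 (SE), a 1.29-fold higher level, with an adjusted p of 0.731 by limma. Zfp36, whose protein speeds the decay of short-lived messages, was at 1263, 1376 and 1520 TPM against 1063, 980 and 1294 TPM. Its FACS-only 1 library lay below the Mock 3 library, and the difference was 0.32 ± 0.11 (SE) with an adjusted p of 0.812. The other members under an unadjusted p of 0.05 were Ier3 (0.12) and Klf6 (0.13).

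For Fos, Egr1 and Nr4a1, often used as marks of dissociation, the groups overlapped. Egr1 was at 2032, 2247 and 2668 TPM in FACS-only and 1828, 1706 and 2466 TPM in Mock cells. Its difference of 0.22 had an interval from -0.11 to 0.55. Nr4a1, an orphan nuclear receptor gene, was at 274, 294 and 523 TPM against 214, 221 and 478 TPM, with a difference of 0.30 and an interval from -0.48 to 1.08. In both genes the library numbered 3 was the highest of its group, and Fos was likewise highest there, at 1175 TPM in FACS-only and 1031 TPM in Mock cells. The library numbered 3 was the highest of its group in all 4 conditions for 14 of the 21 immediate-early genes (66.7%) and for 311 of all genes tested (2.56%). An alternative chosen after this was seen left out the 4 libraries numbered 3. In it 19 of 21 members were higher in FACS-only cells, with a median of 0.15. No gene passed the adjusted threshold between FACS-only and Mock cells there, and 8 members had an unadjusted p under 0.05, all higher. In that fit 354 of all genes tested were higher and 260 lower at an unadjusted p under 0.05. Without Mock 1 or FACS-only 3 the count of 4 at that threshold became 2, and without Mock 3 it became 7. Without Mock 2 only 1 member had an unadjusted p under 0.05 and the median was 0.10, and without FACS-only 3 the median was 0.07.

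**Figure D3:**
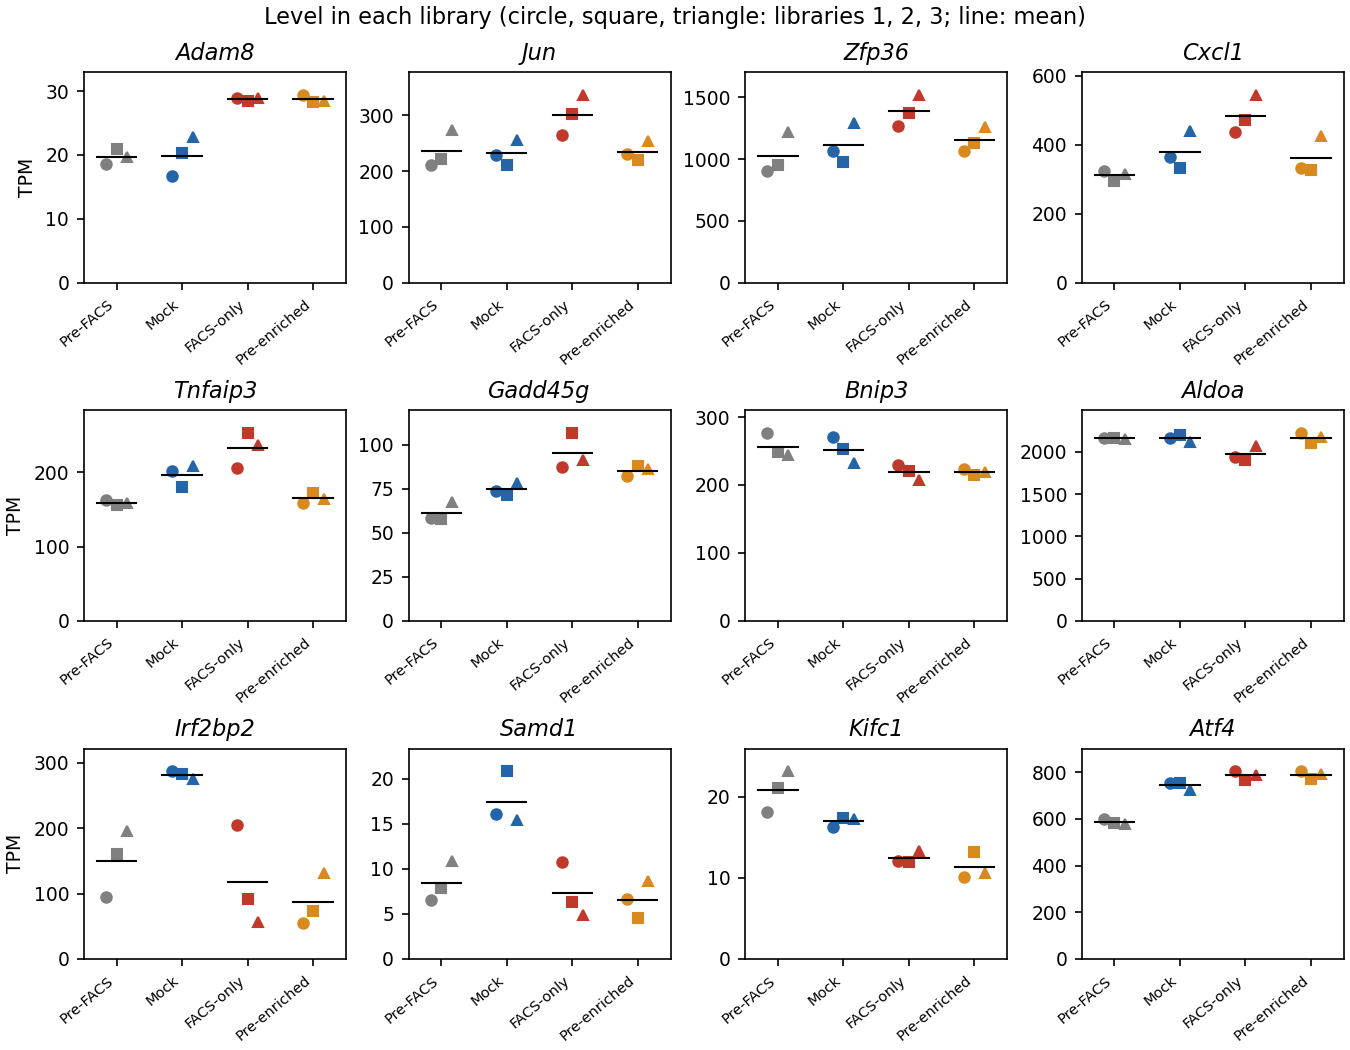
Level in TPM, on axes that start at 0, of 12 genes in each library of the 4 conditions, with circles, squares and triangles for libraries 1, 2 and 3 and a line at the mean. Adam8 separates both sorted groups from both unsorted ones, Jun and Cxcl1 are highest in FACS-only cells with overlap or near overlap, Irf2bp2 and Samd1 are highest in Mock cells, and Atf4 is lower in Pre-FACS cells than in the other 3 groups.

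The genes of the NF-kB list were centred near 0 and none passed the adjusted test. Nfkbiz and Tnf, given above, are not in this list, so its counts and median do not cover them. Of 18 members 9 were higher and 9 lower, with a median of 0.0051, and an unadjusted p under 0.05 was reached by 4 on the higher side (22.2%, against 3.17% of all genes) and 1 on the lower (5.56%, against 2.45%). The sign of the median turned without Mock 2, FACS-only 1 or FACS-only 3, the count of 4 became 2 without Mock 1 or Mock 2, and that of 1 became 0 without Mock 1, Mock 3, FACS-only 1 or FACS-only 2. The neutrophil chemokine gene Cxcl1 was at 439, 471 and 545 TPM in FACS-only and 364, 332 and 440 TPM in Mock cells, with FACS-only 1 just below Mock 3. The difference was 0.36 ± 0.11 (SE), with an adjusted p of 0.766 by limma. Tnfaip3, the gene of the inhibitor A20, was at 206, 253 and 238 TPM against 201, 180 and 209 TPM, a difference of 0.24 ± 0.07 (SE). Nfkbia, the gene of the inhibitor IkB-alpha, was at 336, 367 and 410 TPM against 294, 300 and 360 TPM, a difference of 0.22 ± 0.09 (SE). In both genes the groups overlapped. The subunit gene Rel was higher by 0.49 at 11.8 TPM ± 2.39 against 8.16 TPM ± 2.08 (SD, n = 3), and the chemokine gene Cxcl5 was lower by a difference of -0.12.

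Chaperones and the integrated stress response showed little between sorted and held cells. Of 18 heat-shock genes 11 were higher with a median of 0.01, which was -0.02 without FACS-only 3. One had an unadjusted p under 0.05 (5.56%, against 3.17% of all genes), the inducible Hsp70 gene Hspa1a, at 4.24, 4.91 and 4.43 TPM against 2.25, 3.13 and 4.22 TPM. That count was 0 without Mock 1, Mock 2, FACS-only 2, FACS-only 3, Pre-enriched 1 or Pre-FACS 2. Hspa1b, the near-identical neighbour of Hspa1a, may share reads with it. All 18 genes had an interval within a 2-fold change on the log2(TPM + 1) scale. Hsp90aa1, the gene of the stress-inducible form of HSP90, was at 385, 402 and 381 TPM against 376, 377 and 375 TPM. Of 17 integrated stress genes 13 were higher with a median of 0.06, and 0 had an unadjusted p under 0.05. Without Mock 3 the median was -0.02 with 7 of 17 higher, and without FACS-only 1 and FACS-only 3 it was 0.0038 and 0.15. Its member of lowest p was Nupr1 (0.26, unadjusted p = 0.0707 in the limma fit). Atf4, the transcription factor of that response, was at 804, 765 and 789 TPM in FACS-only and 754, 754 and 724 TPM in Mock cells, a difference of 0.08 with an interval from -0.01 to 0.17. Of 13 genes of the unfolded protein response of the endoplasmic reticulum 2 were higher at an unadjusted p under 0.05 (15.4%, against 3.17% of all genes), the chaperone gene Hspa5 (0.16) and its partner Dnajb9 (0.26). This count was 0 without Mock 1, Mock 2, FACS-only 2 or FACS-only 3, and the median of 0.02 turned negative without Mock 1, FACS-only 2 or FACS-only 3. The 16 genes of the oxidative stress response had a median of 0.01 and none under an unadjusted p of 0.05, with Nfe2l2, their regulator, at the lowest p (0.10).

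Genes of glycolysis and the hypoxia response leaned the other way. Of 20 members 16 were lower in FACS-only cells, with a median of -0.10, and 5 had an unadjusted p under 0.05 on the lower side (25%, against 2.45% of all genes) and 1 on the higher (5%, against 3.17%). Bnip3, a hypoxia-induced mitophagy receptor gene, was at 229, 220 and 207 TPM in FACS-only and 271, 253 and 233 TPM in Mock cells. Its groups did not overlap, and the difference was -0.20 ± 0.06 (SE), with an adjusted p of 0.803 by limma. The aldolase gene Aldoa was at 1942, 1905 and 2065 TPM against 2163, 2200 and 2122 TPM, again without overlap and with a difference of -0.13 ± 0.04 (SE). Pgam1, of the enzyme phosphoglycerate mutase, differed by -0.15, Pfkp by -0.14 and Tpi1 by -0.10, and the 1 member with an unadjusted p under 0.05 on the higher side was the angiogenic factor gene Vegfa at 0.13, which was not under it without Mock 2, Mock 3, FACS-only 1, FACS-only 2 or Pre-enriched 2. Leaving out single libraries moved the count of 5, which became 2 without Mock 2 or FACS-only 2, 3 without Mock 1, FACS-only 1, Pre-FACS 2, Pre-enriched 1 or Pre-enriched 2, and 8 without FACS-only 3, with a median that stayed between -0.11 and -0.07. In the second pair 16 of the 20 genes were lower in sorted cells (80%, against 54.4% of all genes), with a median of -0.06 against -0.01. Of the 5 members named as lower 4 had a negative difference there, from -0.37 for Pgam1 to -0.05 for Tpi1, while Aldoa stood at 0.00. There 4 of the 20 (20%, against 5.81% of all genes) had an unadjusted p under 0.05 in the direction of the first pair, and 1 in the opposite direction. Of the 21 immediate-early genes 17 were higher in that pair (81%, against 45.6% of all genes), with a median of 0.15. An unadjusted p under 0.05 in the direction of the first pair was reached there by 1 of the 21, Fos (0.30; 4.76%, against 5.81% of all genes). In the opposite direction it was reached by 1, Btg2 (-0.25; 409 of all genes), while Jun stood at 0.0046. Of the 18 NF-kB genes 9 were higher and 9 lower in that pair, with a median of -0.01. In the first pair all 20 glycolysis and hypoxia genes had an interval within a 2-fold change on the log2(TPM + 1) scale.

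Mechanical and growth-related genes were small in change. Of 12 targets of the mechanically regulated factors YAP and TAZ 11 were higher, with a median of 0.10, and Ankrd1 alone had an unadjusted p under 0.05 (8.33%, against 3.17% of all genes), a count that was 0 without Mock 1, Mock 2 or FACS-only 3, 2 without Mock 3 and 4 without FACS-only 1. The median was 0.04 without FACS-only 2 and 0.06 without Mock 1. In the second pair 6 of the 12 genes were higher and 6 lower, with a median of -0.0022, so this lean in sign was not seen. There 3 of the 12 (25%, against 5.81% of all genes) had an unadjusted p under 0.05 in the direction of the first pair. Ankrd1 (0.32) was among them, and 1 gene had such a p in the opposite direction (409 of all genes). Ankrd1 was at 460, 481 and 565 TPM against 374, 378 and 474 TPM, a difference of 0.30 ± 0.11 (SE) with an adjusted p of 0.842 by limma. Cyr61 was at 4102, 4521 and 5738 TPM against 3441, 3566 and 4956 TPM, and its difference of 0.27 had an interval from -0.07 to 0.61. Both were highest in the library numbered 3 of each group, and the groups overlapped. With the replicate block both passed the adjusted threshold. Of 16 p53 and growth arrest genes 12 were higher with a median of 0.08, among them Gadd45g and the kinase gene Plk2 (0.25) at an unadjusted p under 0.05 (12.5%, against 3.17%), a count that was 1 without FACS-only 3, and the median was 0.05 without Mock 2. Of 15 clock and cold-response genes 3 were higher at that threshold (20%, against 3.17%), Per3 (0.48), the nuclear receptor gene Nr1d1 (0.26) and Bhlhe40 (0.18), and Clock was lower (-0.25; 6.67%, against 2.45%). The count of 3 became 0 without Mock 2 and 1 without FACS-only 2 or FACS-only 3, the lower count became 0 without Mock 1, Mock 3, FACS-only 1 or FACS-only 3, and the median of 0.04 ranged from 0.03 to 0.12.

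Cell cycle, identity and housekeeping lists were near 0. Of 20 genes of G2 and mitosis 15 were lower with a median of -0.05, and 1 had an unadjusted p under 0.05 (5%, against 2.45% of all genes). Without FACS-only 1 the median was 0.01 with 13 of 20 higher, and without Mock 2 it was -0.0042 with 9 higher. In the second pair 15 of the 20 were lower (75%, against 54.4% of all genes), with a median of -0.06. The member under that threshold was Kifc1, a minus-end spindle kinesin gene, at 12.0, 11.9 and 13.3 TPM in FACS-only and 16.2, 17.4 and 17.3 TPM in Mock cells, a difference of -0.42 ± 0.13 (SE) with groups that did not overlap. The second pair showed it at 11.3 TPM ± 1.67 in Pre-enriched and 20.8 TPM ± 2.52 (SD, n = 3) in Pre-FACS cells. None of the 19 genes of G1 and DNA replication (median -0.02, lowest p for Rrm1 at -0.13), the 19 of cholesterol synthesis (0.0082), the 12 of the interferon response (0.03), the 11 mesenchymal genes (-0.02, Vim at -0.10) or the 16 of actin and adhesion (0.0074, Zyx at 0.16) had an unadjusted p under 0.05. The same holds for the 2 blood genes, Col1a1 and the 2 acinar and islet genes that could be tested. Of 15 epithelial genes Cldn7, a tight junction gene of low level, was lower by a difference of -0.52 at that threshold (6.67%, against 2.45%). This count was 0 without Mock 1, FACS-only 1, FACS-only 2, Pre-enriched 3 or Pre-FACS 1, and 3 without FACS-only 3. The 23 nuclear genes of oxidative phosphorylation had a median of 0.01. The 34 histone genes had a median of -0.02, with 2 higher (5.88%, against 3.17% of all genes) and 3 lower (8.82%, against 2.45%) at that threshold. These counts were 1 to 3 and 2 to 4 when single libraries were left out, and as many copies are near-identical their reads may be shared. Genes encoded in the mitochondrial genome were not analysed here. Of the 23 lists with a tested member, the median of 17 changed sign when some single library was left out. It kept its sign without each of the 12 libraries for the immediate-early, glycolysis and hypoxia, YAP and TAZ, p53 and growth arrest, and clock and cold-response lists, and for Col1a1.

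Ribosomal protein genes leaned on 1 library. Of 79 genes 68 were higher in FACS-only cells with a median of 0.08, and Rpl38 (0.33) had an unadjusted p under 0.05 (1.27%, against 3.17% of all genes), a count that ran from 0 to 3 when single libraries were left out. These genes held 3.07% of all TPM in FACS-only 1 and 2.51% and 2.45% in FACS-only 2 and 3, beside 2.52%, 2.66% and 2.52% in the Mock libraries. Without FACS-only 1 the median was -0.04 and 18 of 79 were higher. In the Pre-FACS group the library numbered 1 was likewise the highest, at 3.23%.

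**Figure D4:**
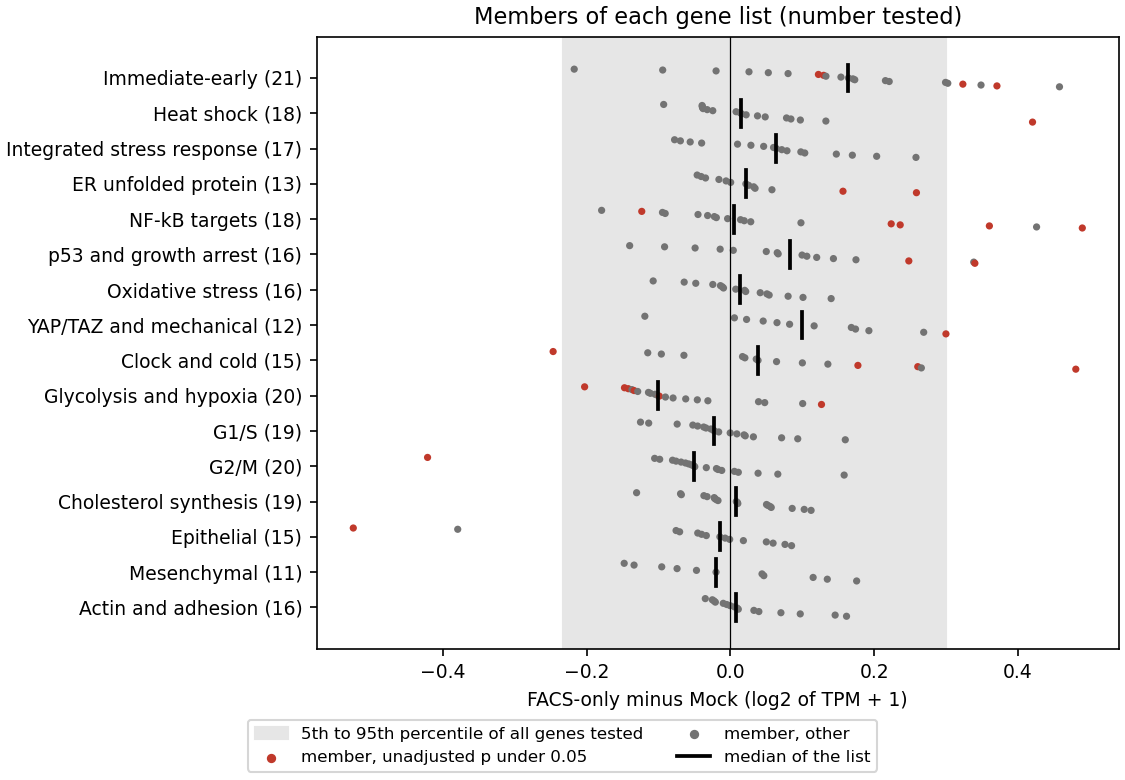
Difference of each member of 16 gene lists (FACS-only minus Mock, log2 of TPM + 1), with a black bar at the median of each list, red points for an unadjusted p under 0.05 and a grey band over the central 90% of all genes. Immediate-early genes reach from -0.22 to 0.46 with a median of 0.16, glycolysis and hypoxia genes sit left of 0 with a median of -0.10, and the other medians shown lie between -0.05 and 0.10.

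To place the sorter beside the time on the bench, both groups were compared with the Pre-FACS cells, which are the shared reference here, so the values are given side by side. FACS-only cells differed from Pre-FACS cells in 15 genes at an adjusted p under 0.05, with 12 higher (0.0987% of genes) and 3 lower (0.0247%), and Mock cells in 1 gene (0.00822%), Atf4. Atf4 was at 587 TPM ± 11.5 in Pre-FACS, 744 TPM ± 17.5 in Mock and 786 TPM ± 19.8 (SD, n = 3) in FACS-only cells. Its difference from Pre-FACS was 0.34 in Mock cells (adjusted p = 0.00755 by limma) and 0.42 in FACS-only cells (adjusted p = 0.000471). These counts depend on the model. The FACS-only count of 15 became 0 without the mean-variance trend in limma and 1 (Atf4) with an ordinary linear model per gene, and the Mock count of 1 became 0 without the trend. Single libraries moved them too. Against Pre-FACS the FACS-only count of 15 became 5, 6 and 23 without FACS-only 2, 3 and 1, it became 7, 8, 7, 24 and 9 without Pre-FACS 2, Pre-FACS 3, Mock 1, Mock 3 and Pre-enriched 1, and the Mock count became 0 without Mock 1, Mock 2, Pre-FACS 2 or Pre-FACS 3.

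The 15 genes were chosen on the FACS-only and Pre-FACS libraries, so their values are a description. Both differences given here share the Pre-FACS libraries, so a Mock difference of the same sign is no evidence by itself of a change on the bench. Nfkbia was at 241, 221 and 249 TPM in Pre-FACS cells, and the Mock values of 294, 300 and 360 TPM were all above these. Its difference from Pre-FACS was 0.64 in FACS-only and 0.42 in Mock cells. For Gnl3 the same differences were 0.38 and 0.06, for Kifc1 -0.69 and -0.27, for Cxcl1 0.63 and 0.27, for Gadd45g 0.62 and 0.28, for Plk2 0.47 and 0.22, for Bhlhe40 0.40 and 0.22 and for Tnfaip3 0.54 and 0.30. Nr1d1 stood at 0.66 and 0.40, the kinase gene Pim1 at 0.66 and 0.40, Klf10 at 0.47 and 0.30, the EGF-family ligand gene Areg at 0.42 and 0.30, Tsc22d1 at -0.30 and -0.16 and the cell cycle inhibitor gene Cdkn2a at -0.42 and -0.28. The FACS-only and Mock libraries did not overlap in 4 of the 12 higher genes (5.11% of all genes did not overlap on the higher side) and in 2 of the 3 lower genes (5.4% on the lower side), counts from which nothing is read since the FACS-only libraries chose these genes. The direct difference between FACS-only and Mock passed the adjusted threshold in none of the 15. A gene that passed against Pre-FACS in FACS-only cells alone is thus not shown to differ between FACS-only and Mock cells. Of the 21 immediate-early genes 18 were above Pre-FACS in FACS-only cells, with a median of 0.32, and 18 in Mock cells, with a median of 0.14. None of the 21 passed the adjusted threshold in either. Of the 12159 genes tested 6117 were above Pre-FACS in FACS-only and 5894 in Mock cells.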

How the data were processed

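Whole transcriptome libraries were made from bulk RNA with the SMART-Seq v4 kit. The authors aligned reads to mm10 with STAR, counted them with featureCounts, applied upper-quartile normalization (EDASeq) and deposited TPM for 13845 genes, which sum to 1000000 in each library. The tools named in the submitters' processing notes are STAR 2.52 and featureCounts, and the annotation and the rule for choosing genes are not given in the sources used here. The 12159 genes tested reached 1 TPM or more in 3 or more of 12 libraries. A model of the 4 conditions was fitted to log2(TPM + 1) of all 12 libraries with limma (version 3.58.1, R 4.3.3, empirical Bayes with a trend), with Benjamini-Hochberg adjustment over all genes and a threshold of 0.05, and was tested on simulated data. The comparison, the 24 gene lists and the rules for named genes were chosen with earlier results of these data known. Named genes are the 10 of lowest p in each direction, the member of lowest p of each list, members of the stress lists, 10 genes called in earlier results, genes called against Pre-FACS and the 5 largest non-overlapping differences each way at a mean of 10 TPM or more. Cyr61, Plk2, Aldoa, Pfkp, Tpi1, Vegfa and other list members were named after their values were seen. Fam166a, 1 of those 10, was at 0.351 TPM or less in the 6 libraries. Coordinates come from GENCODE (96.4% of symbols matched). The libraries of single cells and pools were not used here, and unused columns numbered 0. A few list members and 1 allele of the mouse model are not reported here.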

Additional observations from a re-analysis of the deposited data

How the results depend on the processing

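The count of 0 genes between FACS-only and Mock cells held in limma fits with a pseudocount of 0.1, without a filter, with a mean of 5 TPM or more, with quantile normalization or centring on the median of each library, without a trend, with an ordinary model per gene, with the 2 groups alone, at an adjusted p of 0.1, and without each of the 12 libraries, where the range was 0 to 0. The replicate block gave 4 genes, all higher in FACS-only cells (Jun, Zfp36, Cyr61 and Ankrd1), and moved the counts against Pre-FACS to 77 for FACS-only and 7 for Mock cells. With it 13 of the 21 immediate-early genes had an unadjusted p under 0.05, all higher, against 4 without it. Of the 20 glycolysis and hypoxia genes 10 were lower at that threshold, against 5 without it. Over all genes the counts were 495 higher and 375 lower with the block, against 386 and 298 without it. Deviations of libraries of the same number correlated at 0.0942, 0.0253 and 0.0944, and each library correlated best with its own number. The summed histone level fell from library 1 to library 3 in all 4 conditions, as from 621 to 464 TPM in Mock and from 584 to 429 TPM in FACS-only cells. The sources do not say what libraries of one number share. The main fit leaves the number out, so variation shared by number counts there as spread, and its count of 0 holds for that choice. Against Pre-FACS the FACS-only count of 15 became 0 without a trend, 1 with an ordinary model and 31 at an adjusted p of 0.1, and ran from 5 to 24 without single libraries. The genes changed too. Without the libraries numbered 3 there were 20, all higher, and those of lowest p were Nr4a1, Fosb, Csrnp1, Cyr61 and Fos. With the 2 groups alone there were 12, all higher, with Nfkbia, Atf4 and Cxcl1 but also Snora28, Nfkbiz and Mir1938. The Mock count of 1 became 0 with median centring, without a trend, with the 2 groups alone and without the libraries numbered 3, and ran from 0 to 1 without single libraries. The excess of r ran from -0.00022 (without Mock 2) to 0.00057. The replicate block gave 0.00205, a value raised by the subtraction of the mean of each number itself. The cause of the other shifts was not tested. Under the alternatives run, none of the genes given with a difference changed sign. TPM keeps no depth, so precision could be read only from the spread of 3 libraries a group.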
